A study of Mus musculus with 6 samples.

Results

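The genes described here are 31 genes of cholesterol and fatty acid synthesis, of 15944 genes named by a single symbol on the arrays. They were taken from a list of gene names and not by their signals, though the list was chosen with earlier results of these data known. The list holds 18 enzymes of the sterol branch, 6 enzymes of the fatty acid branch, 5 regulators and 2 genes that carry or export cholesterol. Of these, 30 genes had at least 1 probe set with a single gene symbol and Acat2 had none. The 30 genes were read by 76 probe sets, 39 on array design A, 17 on B and 20 on C, and 1 further probe set named Tm7sf2 together with another gene and was set aside.

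RNA was taken from male C57BL/6 mice aged 11 to 18 weeks, from deep cerebellar nuclei sampled around the anterior interpositus, through which the cerebellum drives the conditioned blink. All mice carried eyelid wires and a headstage, recovered for 3 days and then had 7 days of training. The tone, of 1 kHz, lasted 352 ms and the periorbital shock 100 ms. Sampling is recorded as 10 to 30 min for both groups. In the paired group the shock began 252 ms after tone onset and ended with the tone, and in the unpaired group tone and shock were given apart in pseudorandom order, so the groups share surgery, tone and shock and differ in their timing. Each group was 1 pool of 10 to 15 nuclei ipsilateral to the wired eye, as far as the labels tell, hybridised once to each of 3 array designs with different probe sets. Whether 1 RNA preparation served all 3 arrays of a group is not in the labels. No group and design had a replicate, so no difference below has a p-value or a replicate check, and it compares 2 pools. The tissue holds neurons and glia together, and fewer cells of a type cannot be told apart from less RNA per cell.

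Cholesterol in the brain is made locally, since blood lipoproteins do not cross the blood-brain barrier, and oligodendrocytes and astrocytes are its main makers. The sterol branch leads from acetyl-CoA through mevalonate and farnesyl diphosphate to squalene, closes the rings to lanosterol and then trims lanosterol to cholesterol. The fatty acid branch turns acetyl-CoA into malonyl-CoA and palmitate, which is lengthened and desaturated. Both branches are driven by the SREBP transcription factors, the products of Srebf1 and Srebf2, which Scap escorts to the Golgi for activation and which Insig1 and Insig2 hold in the endoplasmic reticulum when sterols are plentiful. SREBPs bind sterol regulatory elements and act with the factors NF-Y, which binds CCAAT, and Sp1, which binds GC boxes.

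The promoters of members from both branches are shown because the SREBPs act on both branches. They are RefSeq sequences of build GRCm38.p6, written 5′ to 3′ on the strand of the gene and ending at the base before the annotated start. Capitals mark CCAAT or its reverse complement and, in Hmgcs1, the letters TCACNCCAC of a sterol regulatory element. The windows lie at chr13:119690191-119690350 on the plus strand for Hmgcs1, chr5:4104698-4104827 on the minus strand for Cyp51, chr13:8885476-8885605 on the plus strand for Idi1, chrX:8193513-8193642 on the minus strand for Ebp, chr11:120824548-120824677 on the minus strand for Fasn and chr3:129532256-129532385 on the plus strand for Elovl6.
Hmgcs1: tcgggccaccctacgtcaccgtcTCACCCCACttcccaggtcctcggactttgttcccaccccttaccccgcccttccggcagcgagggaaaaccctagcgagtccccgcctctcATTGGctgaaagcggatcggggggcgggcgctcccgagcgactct
Cyp51: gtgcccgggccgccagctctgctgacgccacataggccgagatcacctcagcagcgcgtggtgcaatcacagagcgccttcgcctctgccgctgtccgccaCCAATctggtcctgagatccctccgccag
Idi1: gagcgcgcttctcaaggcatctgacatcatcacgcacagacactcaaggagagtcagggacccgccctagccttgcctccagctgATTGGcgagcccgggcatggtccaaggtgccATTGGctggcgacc
Ebp: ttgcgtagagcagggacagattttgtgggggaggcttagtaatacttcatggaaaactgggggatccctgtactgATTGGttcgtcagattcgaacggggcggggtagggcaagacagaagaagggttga
Fasn: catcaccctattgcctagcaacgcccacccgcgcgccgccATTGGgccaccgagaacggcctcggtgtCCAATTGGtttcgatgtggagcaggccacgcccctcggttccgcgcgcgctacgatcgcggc
Elovl6: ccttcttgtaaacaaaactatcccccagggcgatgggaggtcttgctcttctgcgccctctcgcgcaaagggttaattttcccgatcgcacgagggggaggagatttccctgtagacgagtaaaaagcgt

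Promoter windows were found for 26 of the 31 genes, 36 windows in all, and not for Fdps, Fdft1, Sqle, Scd1 and Scd2. CCAAT, searched on both strands in the 250 bases before the start, was present in a window of 14 of 15 sterol genes, against 39.5% of 17491 protein-coding genes, and Acat2 was the exception. In the fatty acid branch it was present in Fasn and absent from Acly, Acaca and Elovl6. It was also found in 4 of 5 regulators, all but Scap, and in neither Apoe nor Abca1. The GC box GGGCGG was present in 14 of 15 sterol genes and 1 of 4 fatty acid genes, against 45.8% of protein-coding genes. TCACNCCAC was found only in Hmgcs1 among the 26 genes, against 1.22% of all 27025 genes, and CACGTG, an E-box, in 6 of the 26, against 6.86%. A match describes the letters of a window. Genes with more than 1 window, which include Dhcr7, Insig2, Srebf1, Scap, Pmvk and Apoe, had more chances of a match.

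Signals are the deposited values, read as log2. The paired values of each design were moved by at most 0.01, to centre the differences of the probe sets kept below on 0. Within a design, Pearson's r between the arrays was 0.991 to 0.995 over its probe sets, which are not replicates, and probe sets with a mean signal at or above the median of their design were kept. The log2 ratio below is paired minus unpaired, and a gene's value is the mean over its kept probe sets. Among 3439 genes with 2 or more kept probe sets, the ratios of one gene's probe sets had a pooled SD of 0.20, and the same SD over 15 such genes of this list was 0.21. This SD measures error of probes and arrays, not the spread between pools of mice. Control probe sets for Gapdh had mean log2 ratios of 0.07 to 0.18, and those for 18S RNA -0.90 to -0.52, over the 3 designs. Those for pyruvate carboxylase had -0.05 on its 3′ probe set and 0.28 on its 5′ probe set, and those for the transferrin receptor 0.01 to 0.22.

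Of the 76 probe sets, 50 were kept, and 28 genes had at least 1 of them. Srebf2 and Insig1 had none, and 11 probe sets lay under the floor of their design, its 25th percentile of signal, in both pools. Apoe, the main apolipoprotein of the brain, had the brightest probe set of the list at percentile 99.98 of design A, followed there by Scd2 at 99.4 and Scd1 at 97.3, both desaturases. On design C a probe set of Mvd, which makes isopentenyl diphosphate, reached percentile 99.1. Its ID carries a letter suffix, and the unsuffixed Mvd probe set on design A lay at percentile 65.8. Percentiles rank probe sets by brightness and do not order the genes by transcript number, since probes differ in how well they bind. Probe sets of 1 gene were often far apart: the 6 of Fdps, the farnesyl diphosphate synthase gene, ranged from percentile 1.38 to 95.2, and the 4 of Msmo1 from 1.96 to 78.0. Near the filter, 12 probe sets lay between percentiles 45 and 55, of which 8 were kept, among them those of Ebp at 50.5 and Cyp51 at 50.3 on design A and 50.9 on C, while one of Insig1 at 48.3 was not.

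**Figure D1:**
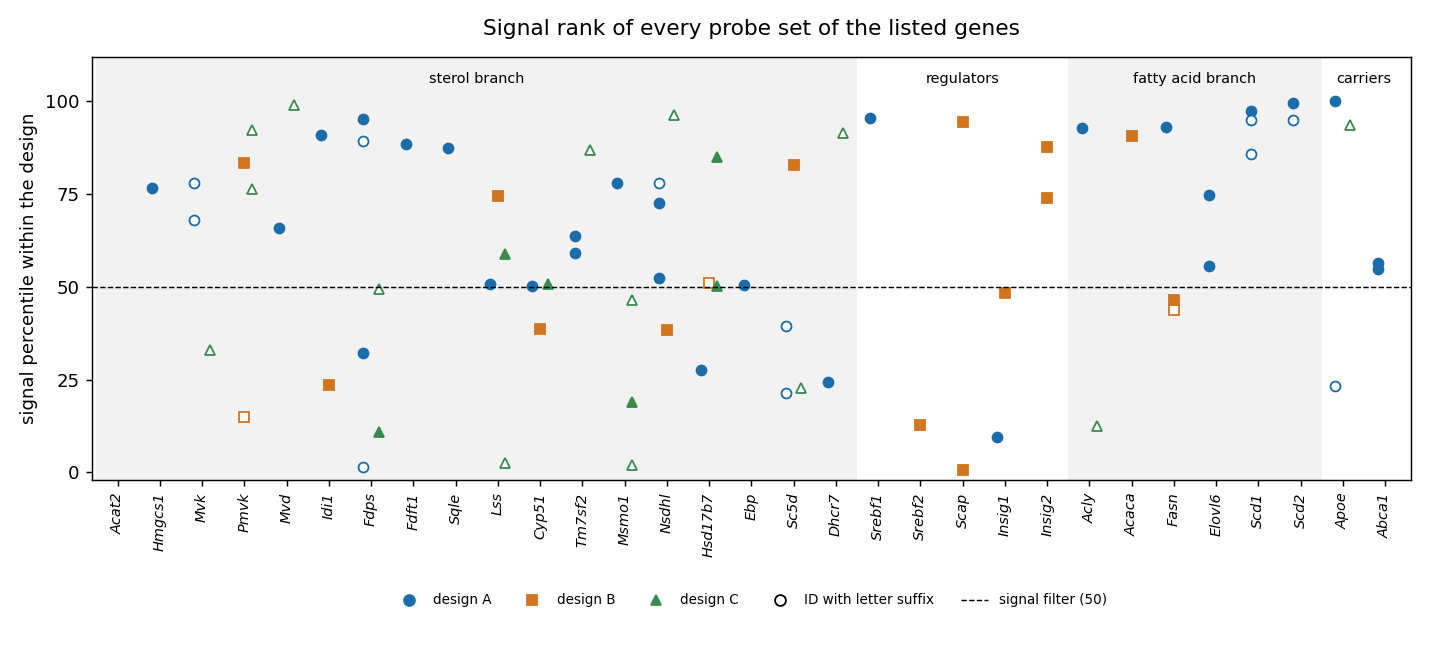
Signal percentile within its array design (vertical axis, percent) of each of the 76 probe sets, by gene in pathway order. Colours and shapes mark the design, open symbols mark probe sets whose ID carries a letter suffix, and the dashed line is the signal filter, above which 50 probe sets lie; Acat2 has no point.

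Across the list, differences between the pools were small and did not share one direction. Of the 28 genes, 19 were lower in the paired pool and 9 higher, where 51% of all 10576 genes measured were lower. The median log2 ratio was -0.05, against -0.0039 over all genes, and gene values ran from -0.28 for Fasn to 0.26 for Ebp. No gene of the list was 1.5-fold apart, against 0.388% of all genes. Beyond the SD of 0.20 lay 3 genes on the lower side (Fasn, Cyp51 and Elovl6) and 1 on the higher (Ebp), 4 of 28 in all, against 20.6% of all genes measured. This SD is that of a single probe set, and gene values that average several probe sets were held to the same limit. None of the 50 kept probe sets was 1.5-fold apart, against 0.681% of all 18351 kept probe sets. At 1.2-fold the count was 8, against 16.4% of all, so the share was near the background. Of these, 4 were lower and 4 higher, against 8.33% and 8.03% of all. By design they were 6 of 31 on A, 0 of 8 on B and 2 of 11 on C, against 15.3%, 18.2% and 15.5%. Of the 50 probe sets 33 were lower by any amount, against 50% of all.

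**Figure D2:**
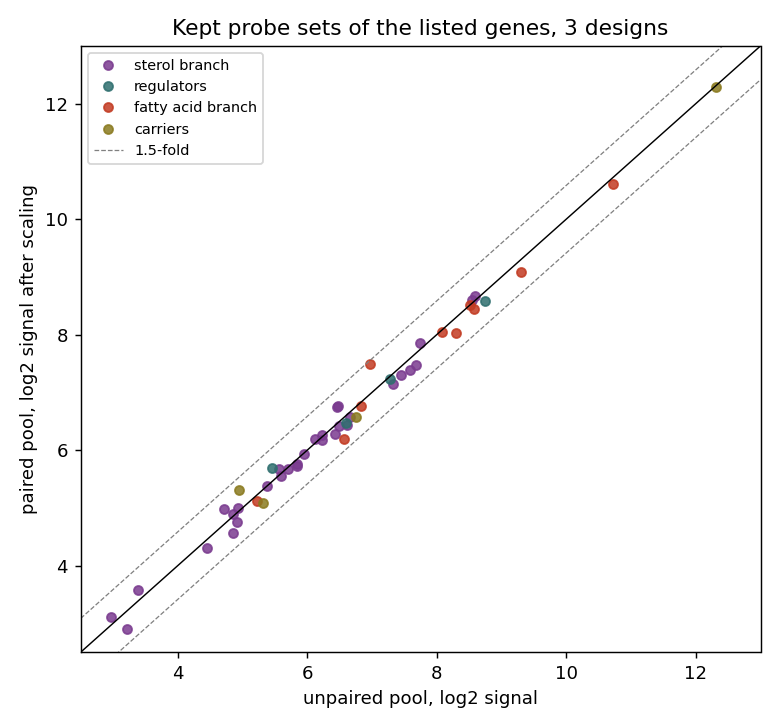
Log2 signal of the 50 kept probe sets in the unpaired pool (horizontal axis) and in the paired pool after scaling (vertical axis), coloured by branch. The solid line marks equal signal and the dashed lines 1.5-fold; all 50 points lie between the dashed lines.

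The sterol branch had 11 of 17 measured genes lower in the paired pool, with a median log2 ratio of -0.05. This is a small excess over the 51% of all genes. None of its gene values was 1.2-fold apart, against 12% of all genes. Its median was 0.02, with 8 of 17 genes lower, when no signal filter was used, so its sign turned with the filter. It was 0.0041 over the 4 genes of design B and -0.13 over the 8 of design C.

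The first steps, from Hmgcs1 to Fdps, had 4 of 6 measured genes on the lower side, with a median of -0.04, whose sign turned under 4 of 12 other settings. Hmgcs1, the synthase that makes HMG-CoA, gave log2 signals of 6.61 (unpaired) and 6.44 (paired) on its single probe set, so its ratio was -0.16. That difference is smaller than the SD of 0.20 between probe sets of a gene. In the pairs of signals that follow, the unpaired pool comes first. Mvk, the mevalonate kinase gene, had 6.47 and 6.77 on one kept probe set and 5.96 and 5.93 on the other, both on design A and annotated to the same source sequence. They therefore did not share a direction, and the gene value of 0.13 rests on one of them, with a log2 ratio of 0.29. Another Mvk probe set, on design C, had 2.11 and 2.77 and was too dim to be kept. Every Mvk probe set carries a letter suffix in its ID.

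Pmvk, which adds the next phosphate, was lower on each of its 3 kept probe sets, with signals of 6.24 and 6.17 on design B and 6.49 and 6.41 and 4.85 and 4.56 on design C. Its log2 ratios ran from -0.28 to -0.06, with a mean of -0.14. Both of its kept probe sets on design C are suffixed, and the unsuffixed one on design B gave the -0.06. Mvd, the decarboxylase gene of this series of steps, had 5.84 and 5.76 on design A but 8.59 and 8.66 on design C. The one on design C is suffixed. The probe sets opposed each other, the gene value was -0.0044, and it lay above 0 under quantile or loess scaling. Idi1, the isopentenyl diphosphate isomerase gene, had 7.74 and 7.85, a log2 ratio of 0.11. Fdps had 8.54 and 8.61 on its brightest probe set and 7.68 and 7.47 on a suffixed one, log2 ratios of 0.07 and -0.21, so its value of -0.07 has no agreed direction. With no signal filter the Fdps value was 0.07. A letter suffix in a probe set ID marks probes that the array's maker graded as less specific or less complete.

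The 3 genes from farnesyl diphosphate to lanosterol were split. Fdft1, the squalene synthase gene, had 7.59 and 7.39, a log2 ratio of -0.20. Sqle, the squalene epoxidase gene, had 7.44 and 7.31, a log2 ratio of -0.14. Both lay lower in the paired pool on 1 bright probe set each, at percentiles 88.5 and 87.4 of design A, with no second probe set to compare. Lss, which closes the ring to form lanosterol, was higher on all 3 kept probe sets, one per design. Its signals were 4.85 and 4.89 on design A, 5.56 and 5.67 on B, and 3.39 and 3.58 on C. It was the only member with several kept probe sets that were all higher, with a mean log2 ratio of 0.12 ± 0.07 (SD over 3 probe sets). Its ratio on every design was smaller than the SD between probe sets of a gene.

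Of the enzymes after lanosterol, 5 of 8 were lower, with a median of -0.04, which was 0.04 without suffixed probe sets and 0.02 with no signal filter. Cyp51, the lanosterol demethylase gene, had the lowest value of the sterol branch. Its kept probe sets had signals of 4.92 and 4.75 on design A and 3.22 and 2.91 on design C, a mean log2 ratio of -0.24 ± 0.10 (SD over 2 probe sets). Another probe set, on design B, was under the filter at 3.89 and 3.70, a log2 ratio of -0.19. The paired pool was thus lower on all 3 designs, on probe sets near or under the middle of the signal range. Ebp, the sterol isomerase gene, was the opposite extreme, with 4.72 and 4.98 on a single probe set and a log2 ratio of 0.26, percentile 94.4 among all genes. It too lay at the edge of the filter.

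Tm7sf2, a sterol reductase gene, was lower on all 3 kept probe sets, but 2 of them differed little, with 5.38 in both pools and 5.70 and 5.67. The third, suffixed and on design C, had 5.84 and 5.73, and the mean log2 ratio was -0.05. Msmo1, a methyl sterol oxidase gene, had 6.66 and 6.57 on the 1 kept of 4 probe sets, a log2 ratio of -0.09. Nsdhl, the sterol dehydrogenase gene that acts next, was spread from -0.17 to 0.28 over 4 kept probe sets, with 3 of them higher and a mean of 0.06. Its highest ratio came from a suffixed probe set on design A, with 6.47 and 6.75, and its lowest from another on design C, with 7.32 and 7.15. A probe set under the filter on design B had a log2 ratio of 0.45.

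Hsd17b7, the ketosteroid reductase gene, had log2 ratios of -0.16, -0.05 and 0.13, a mean of -0.02. The lowest came from a suffixed probe set, and the gene value was 0.04 without suffixed probe sets. An Hsd17b7 probe set under the filter on design A had a log2 ratio of 0.26. Sc5d, the sterol desaturase gene, had 6.12 and 6.19 on its 1 kept probe set, a log2 ratio of 0.07. Dhcr7, which carries out a last step to cholesterol, had 6.42 and 6.28 on a suffixed probe set of design C, a log2 ratio of -0.15. Its other probe set, on design A, had 3.05 and 3.46 and lay at percentile 24.5, so Dhcr7 was read above the filter once. The values of these 3 genes were all within the SD between probe sets.

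In the fatty acid branch 5 of 6 genes were lower in the paired pool, against 51% of all genes measured. The median log2 ratio was -0.06, against -0.0039 over all genes. Under quantile scaling 4 of 6 were lower and under loess scaling 3 of 6, against 5314 of 10574 and 5305 of 10576 genes measured. Fasn, the fatty acid synthase gene, had 8.30 and 8.03 on its kept probe set, a log2 ratio of -0.28 and percentile 5.74 among all genes. It was the only gene of the list with a value past 1.2-fold, against 12% of all genes. Its other probe sets, on design B and just under the filter, had 4.18 and 4.15 and 4.05 and 4.02, log2 ratios of -0.03 and -0.02. They pointed the same way as the bright probe set but were far smaller. Elovl6, which lengthens palmitate, was lower on both probe sets, with 6.568 and 6.198 on one and 5.22 and 5.13 on the other. Their mean log2 ratio was -0.23 ± 0.19 (SD over 2 probe sets).

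Acly, the ATP citrate lyase gene that supplies acetyl-CoA to both branches, had 8.08 and 8.05, a log2 ratio of -0.03 that lay above 0 under quantile or loess scaling. Acaca, the acetyl-CoA carboxylase gene, had 6.83 and 6.77, a log2 ratio of -0.07. Both values were well inside the SD between probe sets. Scd1, a desaturase of saturated fatty acids, had 9.31 and 9.08 on its brightest probe set, its only unsuffixed one. A second, suffixed probe set annotated to the same source sequence had 8.57 and 8.44, so both were lower. The remaining probe set, also suffixed and dimmer, had 6.97 and 7.49, a log2 ratio of 0.51. That ratio was the largest among the 50 kept probe sets and turned the gene value to 0.05. Scd2, the desaturase gene most prominent in brain, had 10.72 and 10.61 on its brightest and 8.51 and 8.52 on a suffixed probe set, with a mean of -0.05 that lay at 0.00031 under loess scaling.

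The branches had nearly the same median, with a sterol minus fatty acid difference of 0.01. The difference grew to 0.15 without suffixed probe sets, because the fatty acid median then was -0.17, with 6 of 6 genes lower, and the sterol median -0.02, with 8 of 15 lower. All 7 unsuffixed kept probe sets of the fatty acid branch were lower in the paired pool, against 11 of 21 of the sterol branch and 49.95% of all unsuffixed kept probe sets. With the brightest probe set of each gene the fatty acid median was also -0.17. On design A alone the difference turned to -0.02, and with only probe sets from the 75th percentile up to -0.03. The order of the branches therefore depended on which probe sets were read.

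**Figure D3:**
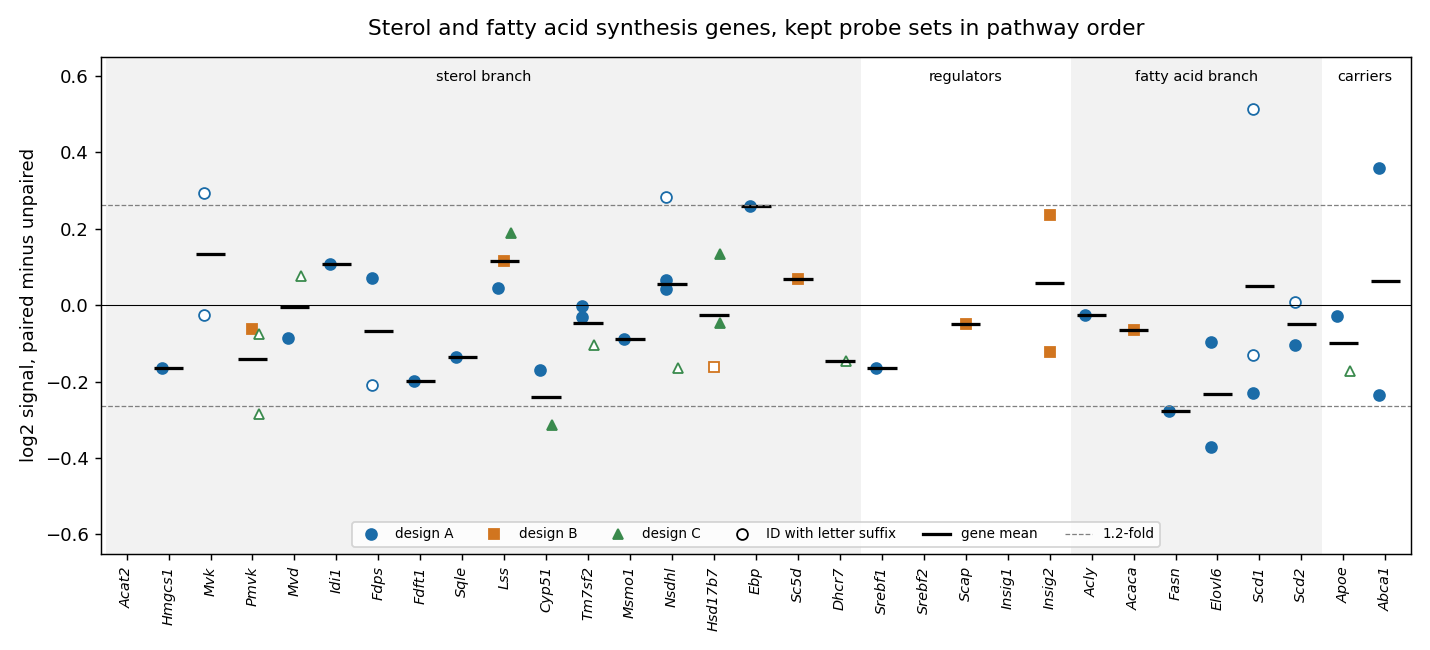
Log2 signal of the paired minus the unpaired pool (vertical axis) for the 50 kept probe sets, by gene in pathway order, with a bar at each gene's mean. Colours and shapes mark the array design, open symbols mark suffixed probe sets and dashed lines 1.2-fold; 4 probe sets lie past the line on each side, the highest a suffixed Scd1 probe set at 0.51 and the lowest an Elovl6 probe set at -0.37.

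Among the regulators, the signal of Srebf1 was 8.74 and 8.57, a log2 ratio of -0.16 on 1 probe set at percentile 95.5. Scap had 7.28 and 7.23, a log2 ratio of -0.05. Insig2 had 6.60 and 6.47 on one probe set and 5.45 and 5.69 on the other, both on design B, so its value of 0.06 has no agreed direction. Srebf2, the factor most tied to sterol genes, had 2.64 and 2.69 on its only probe set, under the floor of 3.15 of design B. Insig1, a classic sterol-repressed target, had 4.27 and 4.23 on design B, just under the filter, and lay under the floor on design A with 2.56 and 2.53. The level of Srebf2 and Insig1 was thus not readable above the filter in either pool.

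Of the carriers, Apoe had 12.32 and 12.29 on the brightest probe set and 6.75 and 6.57 on a suffixed one, log2 ratios of -0.03 and -0.17. Abca1, which exports cholesterol to apolipoproteins, had 5.32 and 5.09 on one probe set and 4.94 and 5.30 on the other, both unsuffixed and on design A. Its ratios of -0.23 and 0.36 were farther apart than the kept probe sets of any other member but Scd1, and its mean was 0.06. Regulators and carriers together had 3 of 5 measured genes on the lower side, with a median of -0.05.

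Agreement between probe sets of a gene gave the only repeat reading of these differences. Of 15 members with 2 or more kept probe sets, 5 were lower on all of them (Pmvk, Cyp51, Tm7sf2, Elovl6 and Apoe), 1 was higher on all (Lss) and 9 were split. Over all 3439 such genes, 20.6% were all lower and 21.6% all higher, 42.2% in one direction, so 6 of 15 is near the background. By number, 3 of 9 members with 2 kept probe sets and 3 of 5 with 3 had one direction, against 50.7% and 26.8% of all genes with as many. No more is read from counts this small.

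The share of lower probe sets differed with brightness within the list, which was not tested. Of the 31 kept probe sets with a signal percentile of 75 or more, 23 were lower in the paired pool, with a median of -0.09, against 53.0% and -0.01 for all probe sets of that range. Of the 19 between the median and the 75th percentile, 10 were lower, with a median of -0.0024, against 47.0% and 0.01. Under loess or quantile scaling, which remove a trend of the ratio with signal, 21 of the 31 bright probe sets were lower, against 49.1% or 48.8% of all. In the sterol branch 12 of 18 bright probe sets were lower under each of the 4 scalings. In the fatty acid branch 6 of 8 were lower, with 7 of 8 under no scaling and 5 of 8 under loess or quantile scaling. Several of these probe sets read the same gene and are not independent.

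**Figure D4:**
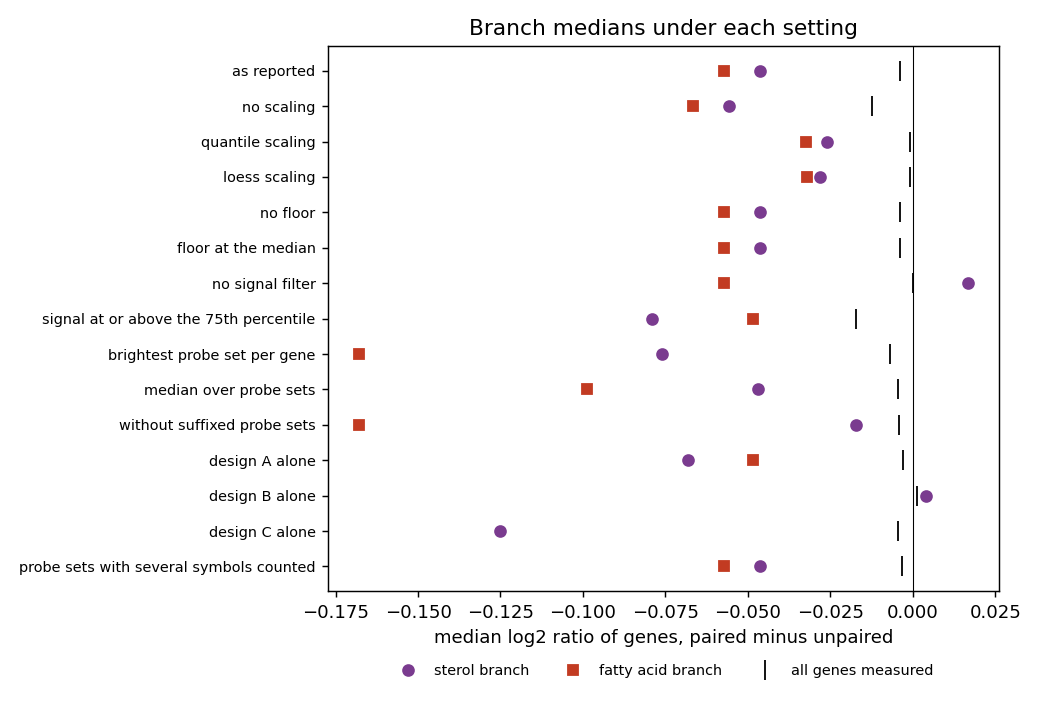
Median log2 ratio of genes, paired minus unpaired (horizontal axis), in the sterol and the fatty acid branch and over all genes measured, as reported and under each of 14 other settings (rows). The sterol median lies between -0.13 and 0.02 and the fatty acid median between -0.17 and -0.03; designs B and C alone had too few fatty acid genes.

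Other genes of lipid metabolism, from lists drawn up by function, were read in the same way. Over all genes measured, 51% were lower and the median was -0.0039. Genes of sterol uptake, transport and export had 16 of 21 measured genes on the lower side and a median of -0.10. Past 1.2-fold, 5 were lower and none higher, against 6.63% and 5.36% of all genes. Osbpl1a, a gene of an oxysterol-binding protein, stood lowest at -0.54 on 1 probe set and Stard3, a sterol transfer protein gene, highest at 0.17. Genes of sterol sensing and control went the other way, with 11 of 16 higher and a median of 0.08. Mbtps1, the protease gene that makes the first cut in SREBPs, was highest at 0.22, and Rxrb, a partner of the sterol-sensing nuclear receptors, lowest at -0.46. The median of this list was -0.05 on design B alone.

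Other sterol and isoprenoid enzymes had 7 of 11 genes higher and a median of 0.03, from Nus1 at -0.25 to Ggps1 at 0.19, both of side branches that lead away from sterols. Other genes of fatty acid synthesis, elongation and desaturation had 16 of 27 lower and a median of -0.01, which lay just above 0 under quantile or loess scaling. Me1, the malic enzyme gene that supplies NADPH, was lowest at -0.32 and Hacd3, of the elongation cycle, highest at 0.21. No gene of these 4 lists was past 1.5-fold, against 0.388% of all genes.

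Markers of the cells that make or use lipids are given beside these values, and their part in the differences was not tested. The background for each list of markers is again 51% of all genes lower. Oligodendrocyte and myelin markers had 19 of 24 measured genes lower, a median of -0.08 and a mean log2 signal of 7.60 and 7.51. They ran from Nkx6-2 at -0.47 to Olig2 at 0.31, and Cnp and Gpr37 lay under the floor in both pools on every probe set. Astrocyte and Bergmann glia markers had mean signals of 7.87 and 7.85 over 38 kept probe sets. Of their 22 measured genes 13 were lower, with a median of -0.08, from Mt3 at -0.51 to Atp1b2 at 0.31. That median was above 0 without suffixed probe sets, on design B alone and when each gene was read by its brightest probe set.

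Granule cell markers, from the neighbouring cerebellar cortex, had 10 of 12 genes higher and a median of 0.19. They ran from Kcnd2 at -0.52 to Gabra6 at 0.89, with mean signals of 5.64 and 5.88 over 18 kept probe sets. Purkinje cell markers had 7 of 10 higher and a median of 0.08, from Kitl at -0.59 to Shisa6 at 0.48, with Pcp4 under the floor, and a median of -0.08 without suffixed probe sets. Markers of the projection neurons of the nuclei had 8 of 11 lower and a median of -0.12, from Irx3 at -0.33 to Slc17a6 at 0.25, and a median of 0.0046 on design B alone. Of the 18 listed markers of these neurons, 14 had a probe set and 11 a kept one, and Tbr1 and Lhx9 lay under the floor in both pools. Over the 24 kept probe sets of the 11, the mean signals were 8.11 and 8.09, a level that the signal filter sets in part.

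Microglia and endothelial and mural markers had medians of -0.0018 over 10 genes and -0.0068 over 10, and the first was 0.03 under quantile and 0.02 under loess scaling. Laptm5 at -0.09 and Cx3cr1 at 0.29 bounded the first, and Cldn5 at -0.37 and Ctla2a at 0.34 the second. Choroid plexus markers had 0.11 over 5 genes, with Ttr at -0.45 and Calml4 at 0.19, and blood markers -0.09 over 4, with Hbb-b2 at -0.44 and Alas2 at 0.14. P2ry12 of the microglia list and Kl of the choroid plexus list lay under the floor. Several of these lists were wider in range than either lipid branch.

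**Figure D5:**
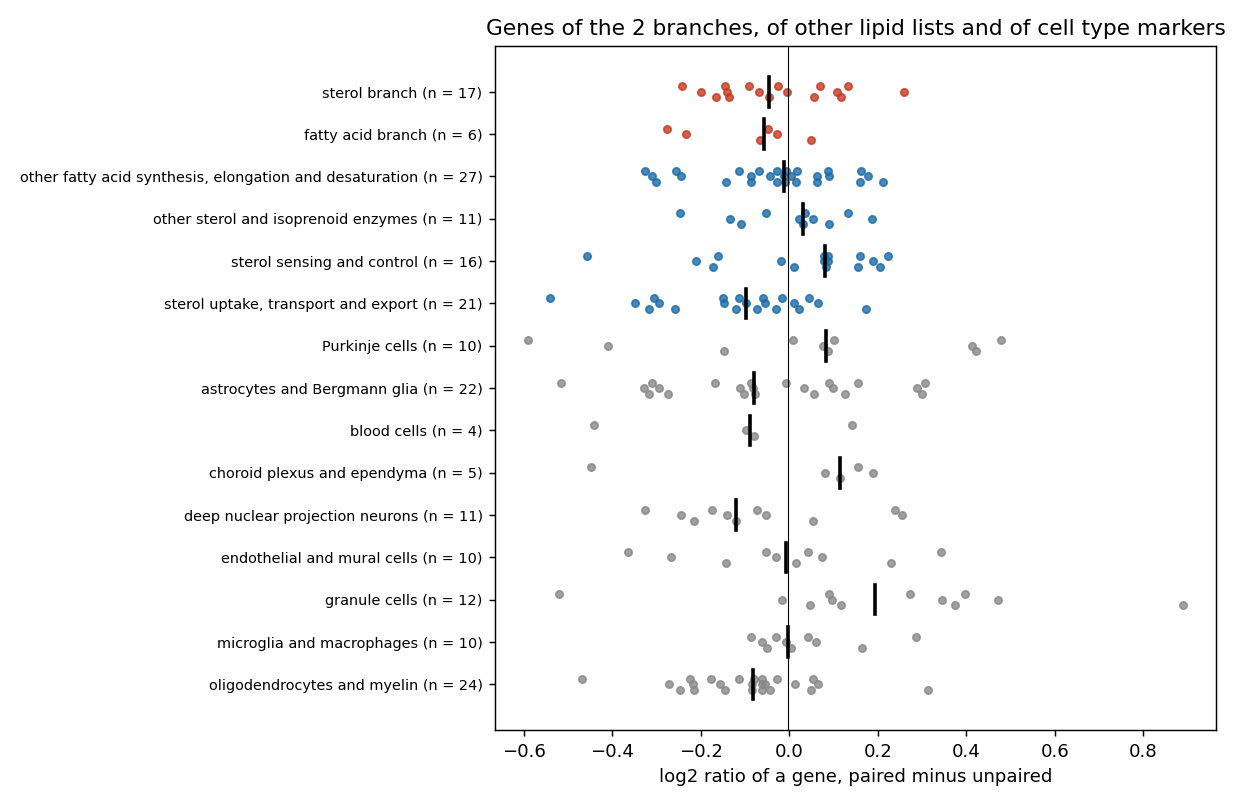
Log2 ratio of each measured gene, paired minus unpaired (horizontal axis), for the 2 branches (red), 4 other lists of lipid genes (blue) and 9 lists of cell type markers (grey), with a bar at each list's median and a line at the median of all genes. The sterol branch spans -0.24 to 0.26 and the granule cell markers -0.52 to 0.89.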

How the data were processed

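The authors deposited 1 value per probe set and array for Affymetrix murine designs A, B and C. These deposited numbers were taken to be log2, a base inferred from their range. How they were summarised and normalized is not stated in the labels or files used, and the number of arrays limits the precision. Control probe sets were left out, leaving 36701. Within each design a constant was subtracted from all paired values, which centred the log2 ratios of the kept probe sets on a median of 0. Signals were floored at the 25th percentile of the design, and probe sets with a mean at or above the median were kept. Genes came from the platform annotation, with 29131 probe sets naming 1 symbol, 724 several and 6846 none. Symbols were updated by gene ID for 29110 of them. Values were compared within a design only, with no test. Every member is described. From each other pathway list (other sterol and isoprenoid enzymes, sterol uptake, sterol sensing, other fatty acid genes) and each cell type list the gene farthest from 0 in each direction is named. The members and lists were chosen with earlier results of these data known. Promoters are from RefSeq. Alternatives were scaling, floor, filter, suffixes, probe set summary and single designs. Scripts (Python 3.11.15, numpy 2.4.6, pandas 2.3.3, matplotlib 3.10.9) were tested on simulated data.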

Additional observations from a re-analysis of the deposited data

How the results depend on the processing

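No paired analysis was possible because each group had 1 array per design, and for the same reason no replicate could be left out. Over 14 other settings, 16 of 28 member genes kept one sign in every setting that gave a value, and 25 of 338 values had the other sign. The sterol median (-0.046 as reported) was 0.017 with no signal filter, 0.0041 on design B and -0.13 on design C. The fatty acid median was -0.17 with the brightest probe set per gene and also without suffixed probe sets, where the difference between branches was 0.15. The 6 of 15 members with all kept probe sets in one direction became 2 of 6 at the 75th percentile filter. On single designs the counts were 3 of 8 on A, 0 of 1 on B and 1 of 2 on C. The 8 of 50 member probe sets past 1.2-fold became 5 of 31 at that filter and 4 of 35 without suffixes. They were 0 of 8 for design B alone and 2 of 11 for C. As reported, the shares over all were 42.2% of genes in one direction and 16.4% of probe sets past 1.2-fold. The Purkinje median was -0.078 without suffixes. The astrocyte median was 0.0033 with the brightest probe set, 0.013 without suffixes and 0.10 on design B. On design B the projection neuron median was 0.0046 and the sterol sensing median -0.049. The cause of these shifts was not tested, and settings with under 3 genes of a list gave no median. Dim probe sets limit Srebf2 and Insig1, which had no signal above the filter.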
